A study of Mus musculus with 2 samples.

Results

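The Clcn5-hosted miRNA cluster comprises Mir532, Mir188, Mir362, Mir501 and Mir500, which lie in the order of transcription within an intron of Clcn5 on chromosome X. The members were chosen by name, as the rows whose Ensembl identifier maps to one of these symbols, and they are 5 of the 1973 miRNA genes counted. MicroRNAs were sequenced from total RNA of the heart of newborn B6NCrl mice on postnatal day 0. There was 1 group of 2 libraries, each from the single heart of 1 pup of the same litter: pup 2 gave replicate 1 and pup 3 gave replicate 2. No treatment or genetic change is named in the labels, and sex was not collected, so these X-linked genes could not be read by sex. A single group allows no contrast of conditions. The data bear on how much of each member the newborn heart contained, how the members stood to one another, and whether the hearts of the littermates differed.

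A miRNA is cut from a hairpin precursor as a short RNA of about the length of one sequencing insert, from the 5' arm (5p) or the 3' arm (3p). It binds messenger RNAs mainly through its seed, bases 2 to 8, and lowers their stability and translation. A miRNA inside an intron is often transcribed with its host gene. Clcn5 encodes the endosomal chloride and proton exchanger ClC-5, best known from the proximal tubule of the kidney. Of the members, miR-532 has been studied in the injured heart, miR-188 in the choice of marrow stromal cells between bone and fat, and miR-501 in the progenitors of skeletal muscle.

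The mature sequences are shown first because the members are related in sequence, and a read that fits more than 1 locus was left out of every gene count. All 5 members matched the RefSeq table of build GRCm38.p6, which held 9 of their arms, and miR-532-5p is named only. The seed is in capitals.
mmu-miR-532-3p: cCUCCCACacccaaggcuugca
mmu-miR-188-5p: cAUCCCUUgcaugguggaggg
mmu-miR-188-3p: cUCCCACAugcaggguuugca
mmu-miR-362-5p: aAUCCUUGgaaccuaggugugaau
mmu-miR-362-3p: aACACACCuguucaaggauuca
mmu-miR-501-5p: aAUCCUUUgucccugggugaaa
mmu-miR-501-3p: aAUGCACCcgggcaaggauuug
mmu-miR-500-5p: aAUCCUUGcuaucugggugcuuagu
mmu-miR-500-3p: aAUGCACCugggcaaggguuca

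The arms fell into related groups within the cluster. miR-501-3p and miR-500-3p had the same seed and were equal at 18 of 22 positions. miR-362-5p and miR-500-5p also shared a seed, and miR-501-5p matched them through base 7 and differed at base 8. miR-362-3p had a different seed from miR-500-3p but was equal to it at 17 of 22 positions. miR-188-3p and miR-532-3p had a stretch of 8 bases in common, which began at base 1 of miR-188-3p and at base 2 of miR-532-3p, so that their seeds overlapped with a shift of 1 base. Outside the cluster, among 1738 mature arms in the table, the seed of miR-362-3p recurred in miR-329-3p and the seed of miR-188-5p in miR-7061-3p.

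The shared stretches were short. None of the 5 precursors (0 of 5) shared a run of 20 nt with another annotated miRNA precursor, against 75 of the 327 genes that reached 2 CPM in both hearts and 923 of all 1894 precursors checked. The longest run common to 2 members' precursors was 14 nt, between Mir501 and Mir500. Each of the 9 arms occurred exactly in the transcripts of 1 annotated gene, its own, among 141767 GENCODE transcripts on the sense strand. The genome outside annotated transcripts was not searched. The precursors of the closest pair are given with their arms in capitals. Their likeness is not confined to the arms, since the run of 14 nt begins in the flank and ends within the 5' arm.
Mir501: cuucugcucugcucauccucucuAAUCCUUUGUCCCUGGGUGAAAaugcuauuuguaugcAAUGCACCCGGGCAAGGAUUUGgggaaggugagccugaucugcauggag
Mir500: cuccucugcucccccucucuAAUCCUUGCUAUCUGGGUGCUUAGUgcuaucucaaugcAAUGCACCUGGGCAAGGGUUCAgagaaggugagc

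On GRCm38, all members lay on the minus strand of chromosome X, the strand of Clcn5 (7153810 to 7319358). Mir532 lay at 7248402 to 7248497, Mir188 at 7247989 to 7248056, Mir362 at 7241982 to 7242046, Mir501 at 7241243 to 7241351 and Mir500 at 7237683 to 7237774. Together they spanned 10815 nt. The spacing was uneven, with 345 nt between Mir532 and Mir188, 5942 nt to Mir362, 630 nt between Mir362 and Mir501, and 3468 nt to Mir500. GENCODE M21 annotates 5 Clcn5 transcripts, and the cluster is intronic in 3 of them, within 1 intron of 104 kb. It is intron 3 of Clcn5-202 and Clcn5-204 and intron 2 of Clcn5-203. The other 2, Clcn5-201 and Clcn5-205, start about 60 kb downstream of Mir532 and do not contain the cluster. Clcn5-201 is the only one of the 5 marked as the principal isoform. No annotated Clcn5 exon overlapped a member, and no other miRNA gene was annotated within 50 kb of them.

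The libraries held 2323450 sense counts on miRNA genes in replicate 1 and 3487183 in replicate 2. Levels are given in CPM, sense counts scaled to a total of 1000000 per library, with the SD over 2 pups and exact Clopper-Pearson 95% intervals per library. The intervals cover counting error only, since reads carried no molecular identifiers. The labelled tissue was checked against its markers. The heart muscle miRNAs Mir208a, Mir208b and Mir499 held 9.01% and 8.89% of counts, and the liver miRNA Mir122 stood at 53.8 and 47.3 CPM. Not all markers of other organs were that low. The 4 kidney and gut genes Mir192, Mir194-1, Mir194-2 and Mir215 summed to 875 and 837 CPM, and 2 of them share a run of 20 nt with another precursor. The 5 brain genes with a row (Mir9-2, Mir9-3 and the 3 Mir124a genes) were listed at 0, but all 5 share a run of 20 nt with another precursor and reads that fit several loci were not counted, so these zeros do not check the tissue. Whole hearts were used, so a lower level in fewer cells and a lower level per cell cannot be told apart. 

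All 5 members were detected in both hearts, at 304 to 2853 CPM on average. Mir532 was the highest, followed by Mir188, Mir501, Mir500 and Mir362. Mir532 had 6756 counts in replicate 1 and 9760 in replicate 2, which is 2908 and 2799 CPM (mean 2853 ± 77.0, SD, n = 2). Its intervals were 2839 to 2978 CPM and 2744 to 2855 CPM, and it ranked 37 of 1973 genes by mean CPM. Replicate 1 was the higher of the pair for this gene, whereas replicate 2 was the higher for the other 4 members.

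Mir188, the closest neighbour of Mir532, had 4249 and 6631 counts, or 1829 and 1902 CPM (mean 1865 ± 51.5, n = 2), and ranked 53. Mir501 had 1586 and 2437 counts, or 683 and 699 CPM (mean 691 ± 11.5, n = 2), and ranked 83. Mir500, its closest relative in sequence, had 1059 and 1705 counts, or 456 and 489 CPM (mean 472 ± 23.4, n = 2), and ranked 95. The lowest was Mir362, with 689 and 1088 counts, or 297 and 312 CPM (mean 304 ± 10.9, n = 2), at rank 114. The hearts thus lay close together for every member, with a coefficient of variation between 1.66% for Mir501 and 4.96% for Mir500.

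**Figure D1:**
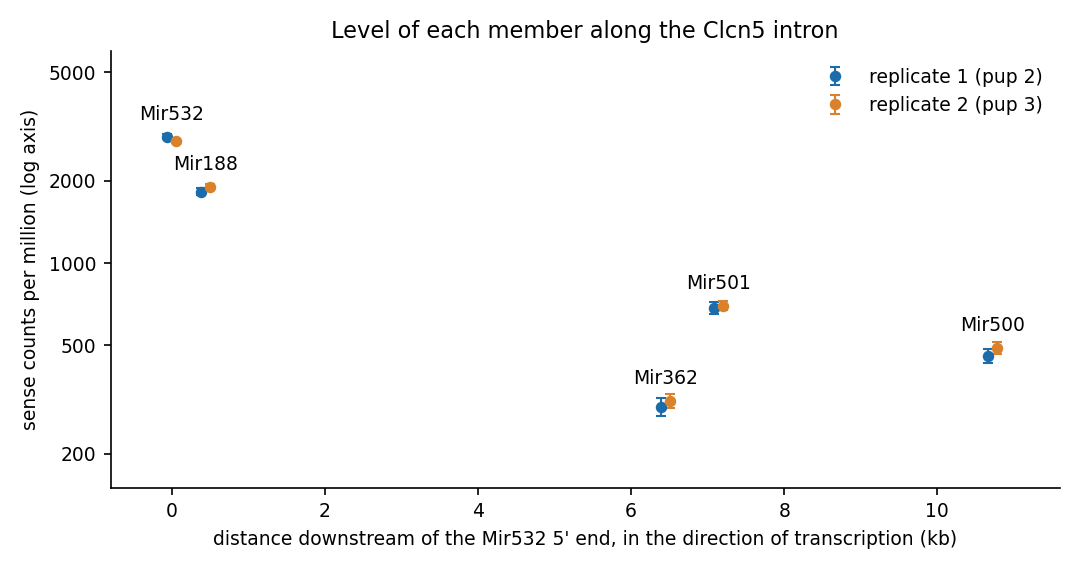
CPM (sense counts, log axis) of each member in each library, with exact 95% counting intervals, against the distance from the 5' end of Mir532 in the direction of transcription in kb. Mir532 and Mir188 sit between 1829 and 2908 CPM at the upstream end, and the other 3 members reach at most 699 CPM, with Mir362 lowest although it lies upstream of Mir501 and Mir500.

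The order of the members was the same in both hearts, and every neighbouring pair in it was distinct in counts. Mir532 exceeded Mir188 1.59-fold in replicate 1 (interval 1.53 to 1.65) and 1.47-fold in replicate 2 (1.43 to 1.52). The step from Mir188 to Mir501 was the largest, at 2.68-fold (2.53 to 2.84) and 2.72-fold (2.60 to 2.85). Mir501 exceeded Mir500 1.498-fold (1.38 to 1.62) and 1.43-fold (1.34 to 1.52), and Mir500 exceeded Mir362 1.54-fold (1.40 to 1.69) and 1.57-fold (1.45 to 1.69). Each mean log2 step, from 0.55 to 1.43, was larger than its SD over the pups, which ran from 0.0158 to 0.0788. No test over pups was made, because an exact sign flip over 2 pups cannot give p below 0.5. The steps compare read counts, and the yield of reads from a molecule of each miRNA is unknown.

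Division by precursor length left the order as it was. A miRNA is about as long as a sequencing insert, so its counts need not rise with precursor length. The division is therefore a description and corrects no known bias. Divided by precursor length, the mean levels were 29.7 CPM per nt for Mir532 and 27.4 for Mir188, which brought these closer together. On this scale Mir501 reached 6.34, Mir500 5.13 and Mir362 4.68 CPM per nt. The step between the upstream pair and the other members remained on this scale.

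The order of levels did not follow the order along the transcript. The upstream pair, Mir532 and Mir188, held 76.7% of the cluster's counts in replicate 1 and 75.8% in replicate 2. Of the downstream members, Mir501 exceeded Mir362, which lies 630 nt upstream of it, and so did Mir500 from the far end. The highest member exceeded the lowest 9.81-fold in replicate 1 and 8.97-fold in replicate 2.

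The members together were nearly the same share of both libraries. They had 14339 counts in replicate 1, 0.617% of the sense counts (interval 0.607% to 0.627%), and 21621 in replicate 2, 0.620% (0.612% to 0.628%). The mean was 0.619% ± 0.00203 (n = 2), or 6186 CPM, and 23 single genes had a higher mean than this sum. The intervals overlapped, and the log2 ratio of replicate 2 over replicate 1 for the sum, on TMM-scaled library sizes, was -0.01 (interval -0.04 to 0.02).

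Between the pups, 1 of the 5 members differed beyond counting error. The exact two-sided binomial test per gene compares these 2 libraries, not conditions, and pups, libraries and preparation cannot be told apart in it. Over all genes it called 97 of 348, or 27.9%, so that 1 member of 5 is near the share among all genes tested. Abundant genes are called more readily. Among genes at 250 CPM and above on average, as all members are, it called 66 of 120, or 55.0%. The members' count was not tested against either share. In the direction of Mir532, lower in replicate 2, it called 10.1% of genes. Mir532 had a log2 ratio of replicate 2 over replicate 1 of -0.07 (interval -0.12 to -0.03), a fold of 0.952 (adjusted p = 0.00783, exact binomial test with Benjamini-Hochberg adjustment). This call was lost with library sizes left unscaled, at a log2 ratio of -0.06 and adjusted p = 0.0555 by the same exact test.

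The other 4 members did not pass. Their log2 ratios were 0.04 for Mir188 (interval -0.02 to 0.10), 0.02 for Mir501 (-0.07 to 0.11), 0.08 for Mir500 (-0.03 to 0.20) and 0.06 for Mir362 (-0.08 to 0.20), with adjusted p from 0.330 to 0.862 in the exact binomial test. The upper ends of these intervals, the largest difference that counting error allows, reached at most 1.15-fold. The median absolute log2 ratio of the members was 0.06, beside 0.08 over the 120 genes at 250 CPM and above on average, of which the test called 55.0%. Epithelial and ciliated-cell miRNAs differed far more between the same libraries. Their 10 genes, none at 0, had a summed level of 429 CPM in the first library and 1815 CPM in the second, and the part of this difference in the Mir532 result was not tested.

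**Figure D2:**
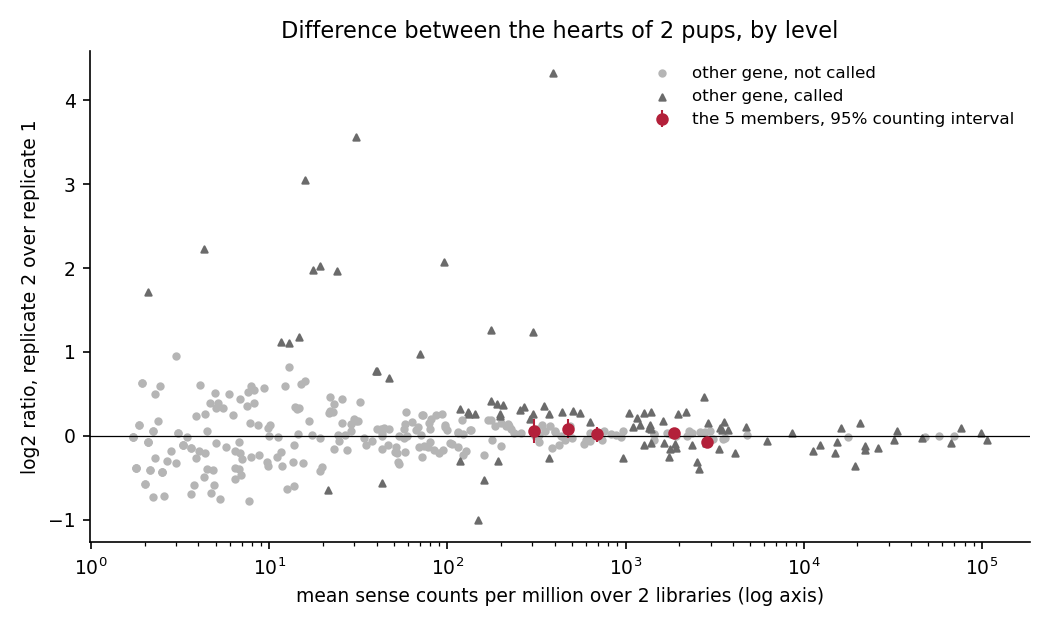
Log2 ratio of replicate 2 over replicate 1 on TMM-scaled library sizes against the mean CPM (log axis), for the 348 genes tested, with the exact 95% counting interval for the 5 members. The members lie between -0.07 and 0.08, close to the line at 0. The median absolute log2 ratio of the 120 genes at 250 CPM and above on average is 0.08. Some other genes reach ratios above 3, among them Mir375 at a mean of 30.6 CPM.

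The division of counts within the cluster, which does not depend on library scaling, was compared between the pups as well. It uses the same Mir532 counts as the binomial test, so it is not independent of that result. It too measures counting error only, and no share over other genes is given beside it. Mir532 took 47.1% of the members' counts in replicate 1 (interval 46.3% to 47.9%) and 45.1% in replicate 2 (44.5% to 45.8%), and these intervals did not overlap. The difference of -1.97 percentage points passed Fisher's exact test of Mir532 against the other members (adjusted p = 0.00119, Benjamini-Hochberg over 5 members). Mir188 took 29.6% and 30.7% (adjusted p = 0.0923, Fisher's exact test). Mir501 took 11.1% and 11.3%, Mir500 7.39% and 7.89%, and Mir362 4.81% and 5.03%, with adjusted p from 0.137 to 0.539 in the same exact test. Since the shares add up to a fixed total, a lower share of Mir532 raises the others.

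**Figure D3:**
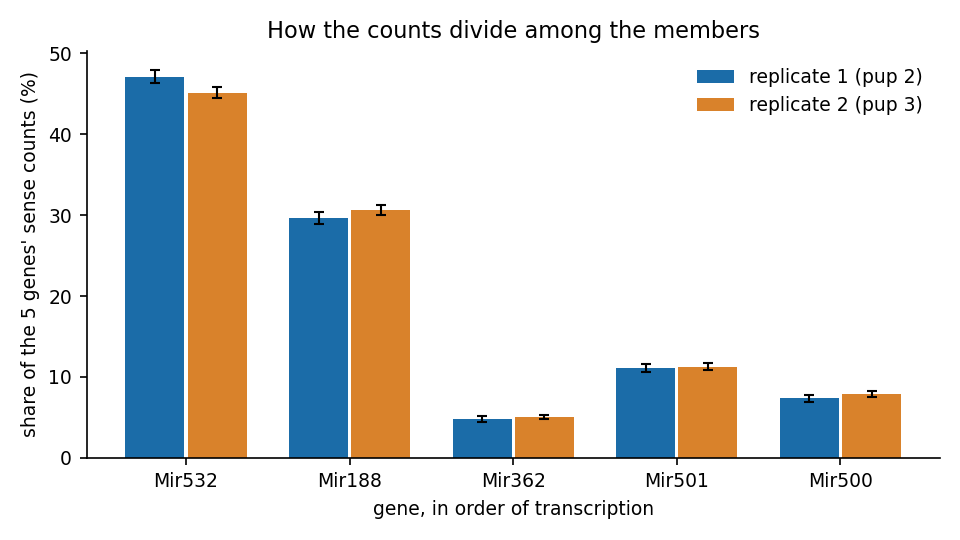
Share of the 5 genes' summed sense counts (%) taken by each member in each library, with exact 95% counting intervals as error bars. Mir532 takes 47.1% in replicate 1 and 45.1% in replicate 2, and the intervals of each other member overlap between the libraries.

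Counts were made per gene, so the arms were not separated and levels cannot be given per seed. The genes that encode a shared seed can be summed, with the other arm of each gene included. Mir501 and Mir500, which share the 3p seed, summed to 1138 CPM in the first library and 1188 CPM in the second. Mir362 and Mir500, which share a 5p seed, summed to 752 and 801 CPM. Each sum was below the level of Mir188 alone. Mir329 on chromosome 12 (109713481 to 109713577, plus strand), whose 3p arm has the seed of miR-362-3p, had 181 and 327 counts, or 77.9 and 93.8 CPM. It lay below Mir362 in both hearts and did not pass the test between pups (log2 ratio 0.25, adjusted p = 0.181, exact binomial test). Mir7061, Mir660, Mir502 and Mir502b had no matched row and are not analysed here.

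All counts of the members came from the strand of the gene. The opposite strand had 0 counts for each of the 5 members in both libraries. For Mir532 this allows up to 0.0444% of its sense counts in replicate 1 and 0.0307% in replicate 2, and for Mir362, the lowest member, up to 0.435% and 0.276%. Of the 137 genes with 1000 or more sense counts over both libraries, 128 also had 0 counts on the opposite strand. Over all gene rows, the opposite strand held 6.62% of the counts of both strands in replicate 1 and 6.67% in replicate 2.

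Among miRNA genes of chromosome X, the members stood in the upper range. By mean CPM, Mir532 was number 6, Mir188 number 8, Mir501 number 12, Mir500 number 14 and Mir362 number 16 on that chromosome. They held 5.85% of chromosome X counts in replicate 1 and 6.10% in replicate 2. Of the 115 other chromosome X genes, 29 reached 2 CPM in both hearts (25.2%), beside 327 of all 1973 genes (16.6%). The median level of those 29 was 121 CPM, below each member. The test between pups called 4 of 30 other chromosome X genes tested, beside 97 of 348 (27.9%) over all genes. These 4 were Mir374b and Mir421, higher in replicate 2, and Mir351 and Mir652, lower. The median log2 ratio of the 30 genes was 0.02, beside 0.03 over all genes tested and 0.04 for the members.

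**Figure D4:**
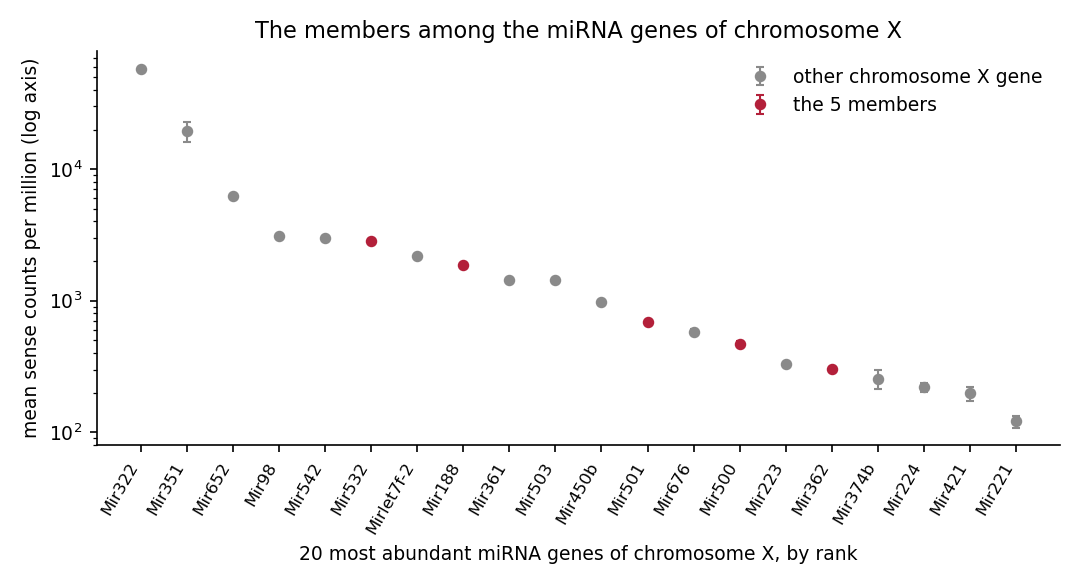
Mean CPM (sense counts, log axis, error bars are the SD over 2 pups) of the 20 most abundant miRNA genes of chromosome X, ordered by level. The 5 members, in red, take ranks 6, 8, 12, 14 and 16.

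The 2 genes nearest in level to each member lay on other chromosomes, as most detected genes do. Of the 327 genes that reached 2 CPM in both hearts, 29 were other chromosome X genes. Nearness was the Euclidean distance of log2(CPM + 1) over the 2 libraries, so it reflects level and little else. Mir532 was nearest to Mir16-1 (distance 0.0213), which had 6710 and 9633 counts, and next to Mir106b (0.0985). Mir188 was nearest to Mir324 (0.0312) and Mir214 (0.0643), and Mir501 to Mir181a-1 (0.0842) and Mir1983 (0.139). Mir500 was nearest to Mir455 (0.0646) and Mir185 (0.124), and Mir362 to Mir328 (0.0501) and Mir25 (0.0905). Mir16-1 and Mir181a-1 share a run of 20 nt with another precursor, so their own counts are uncertain.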

How the data were processed

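Small RNAs with inserts under 30 nt were sequenced from 2 hearts. The authors deposited raw, unscaled read counts for each miRNA gene in 3 columns. The files have no header: the columns were read as strands summed, sense and opposite because the first equals the sum of the others in every gene row and the second has the larger total on genes. Reads were placed on mm10 with GENCODE M4, per the descriptions deposited with the files. The aligner, counter, trimming and mismatch settings are not given in the sources used here. The 4 summary rows (unmapped, aligned to several places, no feature, ambiguous) made up 54.0% of the first library and 53.1% of the second, and were kept out of library sizes. Reads aligned to several places were 36.6% and 37.1%, which lowers counts of genes with near-identical copies.

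CPM used sense counts over all gene rows. Of the identifiers, 1894 matched GENCODE M21 (GRCm38, the same assembly as mm10), and 79 without a match had 0 counts. Genes with 10 or more counts over both libraries were compared by an exact binomial test in SciPy 1.17.1, given edgeR 4.0.16 TMM library sizes, with Benjamini-Hochberg adjustment at 0.05. Log2 ratios used a pseudocount of 1 CPM. Counts of 0 were read as up to 3. The test was checked on simulated counts that held counting error only, so the check does not cover variation between animals or preparations. DESeq2 1.42.0 gave alternative size factors.

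Members, lists, tests and alternatives were chosen with earlier results of these data known. Named genes were the members, their locus and seed relatives, the 2 genes nearest in level to each member, and tissue markers. The 4 chromosome X genes that passed the test, and the clusters and their genes in the closing section, were named after their values were seen. Both pups came from 1 litter, and p-values measure counting error between these 2 libraries only.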

Additional observations from a re-analysis of the deposited data

How the results depend on the processing

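Levels move with the denominator, in proportion for all members. With counts of both strands, Mir532 was at 2664 CPM, Mir188 at 1741, Mir501 at 645, Mir500 at 441, Mir362 at 284 and the 5 together at 5775. With all reads of the library as the denominator, these values were 1324, 866, 321, 219, 141 and 2872, and with the 10 most abundant genes left out of the denominator they were 7811, 5108, 1891, 1294, 833 and 16938. The order of the members held in each heart alone. Summing the strands cannot change it, since the members have 0 opposite counts. The count of members called between the pups was 1, and 0 with unscaled library sizes. It stayed at 1 with DESeq2 size factors, the other count minimums and counts of both strands, with adjusted p for Mir532 between 0.00560 and 0.0199 (exact binomial test). The pseudocount enters the log2 ratio and not the test. The number of all genes called ranged from 86 to 104. Without 1 of the replicates there is no test between pups. No paired analysis was possible because there is 1 group. With no molecular identifiers and 2 libraries of 1 litter, the precision beyond counting error rests on a single difference per gene.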

Other observations

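Over detected genes only, the members were closer to one another in level than those of the miRNA clusters with more detected genes. They were less close than the detected genes of the clusters with fewer, which also held undetected genes. This comparison was chosen after the members' values were seen, and it carries no test. Clusters were taken as chains of miRNA genes on the same strand with gaps of at most 10 kb and 4 or more genes at 2 CPM or more in both hearts. In the Clcn5 cluster the highest member exceeded the lowest 9.38-fold by mean CPM. The ratio leaves out undetected genes. All 5 genes of the Clcn5 cluster were detected, but 4 of 6 in the Mir363 cluster and 4 of 5 in the Mir302a cluster. In the latter, Mir367 had 0 counts in both hearts. The clusters of Mir17 (6 of 6) and Mir322 (7 of 7) were also detected in full. The order of the clusters with undetected genes included was not determined. In the 7 other clusters this ratio ranged from 2.31 to 1661, with a median of 223, and it was wider in 5 of them. The narrower ones were the cluster of Mir363 on chromosome X, at 2.31, and that of Mir302a, at 7.46. The widest were the cluster of Mir17, at 1661, and that of Mir322, at 1007. The detection limit of 2 CPM caps the ratio, and the cap is lower where the highest gene is lower. Mir302a had a mean of 58.3 CPM, against 57502 CPM for Mir322. The lowest detected gene beside Mir302a, Mir302c, had only 17 and 29 counts, and no interval is given for the ratios. None of the 5 members shares a run of 20 nt with another precursor. Of the detected genes, 1 of 4 in the Mir363 cluster and 2 of 4 in the Mir302a cluster do, as do 2 of 6 in the Mir17 cluster, 2 of 7 in the Mir322 cluster, 3 of 28 in the Mir411 cluster and 8 of 8 in the Mir467e cluster. Reads that fit more than 1 locus were not counted on genes, which leaves the levels of such genes uncertain. In the cluster of Mir127 on chromosome 12, where 0 of 10 detected genes share such a run, the ratio was 223. Clusters with more detected genes have more chances of a wide ratio. The narrower clusters had 4 detected genes each and the wider ones 6 to 28, against 5 in the Clcn5 cluster. The part of cluster size was not tested.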
